A study of Mus musculus with 24 samples.

Results

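The unfolded protein response was followed through 10 genes that sense misfolded protein in the endoplasmic reticulum or carry the signal to the nucleus: Xbp1, Atf6, Atf6b, Ern1, Eif2ak3, Mbtps1, Mbtps2, Creb3, Creb3l2 and Creb3l3. Members were the array probes whose gene name in the scanner output was exactly one of these symbols. They gave 28 of the 56605 probes on the array, and 23 of the 32176 probes in the deposited table of log2 values. All 10 genes had at least 1 probe in that table, and none of the 23 probes had an empty cell. Liver RNA of 24 male C57Bl6J mice was measured, 1 array per mouse, and all were third-generation animals of either of 2 lineages. The labels number the mice within a group and name no litter or cage, so p-values measure the spread between these mice. The reference group (label STD_Cont, 9 mice) belonged to the control fatty acid lineage, given high-oleic sunflower oil, and ate a low-fat diet. The HFoleic group (label HFD_Cont, 8 mice) belonged to the same lineage and ate a diet high in fat and sucrose. The HFepa group (label HFD_O3, 7 mice) belonged to the n-3PUFA lineage, whose supplement was an EPA-rich fish oil (eicosapentaenoic acid), and ate that same obesogenic diet. No low-fat group of the n-3PUFA lineage was measured, so HFepa and reference differed in diet and lineage at once. All mice were killed during the fasting period, and their age is not given in the sources used here.

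Secretory cells fold their export proteins in the endoplasmic reticulum, and hepatocytes, which make most plasma proteins, depend heavily on this compartment. When unfolded protein builds up, IRE1 (gene Ern1) cuts an intron out of the Xbp1 message so that it encodes an active transcription factor. PERK (gene Eif2ak3) slows translation and raises ATF4. ATF6 and its relatives travel to the Golgi, where the site-1 and site-2 proteases (Mbtps1 and Mbtps2) release their transcription factor domain. Much of this control acts on splicing, phosphorylation and cleavage, none of which an expression array measures.

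Xbp1 was read by 3 probes, and the sequences of the pair closest to each other are shown because the main change rested on this gene. In mouse build mm9 they lay on the plus strand at chr11:5424869-5424928 (A_55_P2739653) and chr11:5424970-5425029 (A_52_P185079). The other probe, A_55_P1994032, lay at chr11:5425816-5425875.
A_55_P2739653: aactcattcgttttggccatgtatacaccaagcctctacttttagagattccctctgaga
A_52_P185079: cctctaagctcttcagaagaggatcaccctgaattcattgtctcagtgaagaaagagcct
The annotation of each of the 3 probes named 2 RefSeq messages, and whether they tell the spliced from the unspliced form was not tested.

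Between 50.9% and 60.8% of the probes of an array were well above background, and no spot was saturated. Mice of a group differed by a residual SD of 0.18 on the log2 scale for the median probe. Of 23 member probes, 22 were well above background on all 24 arrays. The exception was Ern1 A_55_P2112564, with 3 of 9 reference, 5 of 8 HFoleic and 5 of 7 HFepa arrays. Of 37 marker genes of 9 cell types with complete values, 3 were called in HFoleic against reference: the hepatocyte enzyme Tat at −0.63, the stellate cell gene Lrat at 0.56 and the duct gene Sox9 at −0.65 on the log2 scale. Over all 20556 gene names with complete values, 854 were called higher and 683 lower. The other stellate cell genes with complete values gave −0.45 (Col1a1), −0.29 (Pdgfrb) and 0.00 (Col3a1). Of 5 duct genes 4 were below 0, and the 6 hepatocyte genes had a median of −0.01. The plasma cell and B cell genes Mzb1 and Pou2af1 were not called, and their summed signal was 130 to 274 in reference, 116 to 175 in HFoleic and 120 to 161 in HFepa. Of 4 exocrine pancreas genes measured none was called. In HFoleic against reference 2 were above 0 and 2 below, and in HFepa against HFoleic 3 above and 1 below. Their summed signal had medians of 6961 in reference, 9771 in HFoleic and 8681 in HFepa. Cela1 among them gave 0.50 in the former comparison and −0.43 in the latter. Whether such tissue added to the Xbp1 signal was not tested. Reference replicate 5 had the highest summed signal of the stellate cell markers (9308, against at most 2196 in HFoleic and HFepa) and of the duct markers (10912, against at most 3442), and its part in the member calls is shown by leaving it out. On the first principal component of the arrays it lay at 80.7, and the next array at 30.0. Without it the Xbp1 probes and Mbtps2 A_55_P2792072 (limma adjusted p = 0.0492) stayed called in HFoleic against reference. Creb3l2 A_52_P343856 (0.0605) did not. In whole liver, fewer cells of a type and less RNA per cell cannot be told apart.

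The first comparison, HFoleic against reference, asked how the obesogenic diet changed expression within the control lineage. Xbp1 rose by about 0.6 to 0.7 on the log2 scale by all 3 probes, and both Creb3l2 probes (0.53 and 0.47) and both Mbtps2 probes (−0.23 and −0.11) went the same way, with 1 of each pair called. Atf6 and Creb3l3 showed differences within 0.04 of 0. Limma called 5 of 23 member probes (21.7%) at an adjusted p under 0.05, 4 higher and 1 lower, for 3 of 10 genes. Over the whole table it called 6.59% of probes, 3.69% higher and 2.9% lower. The median absolute log2 difference was 0.18 for the member probes and 0.09 for all probes. None of the 23 probes separated the groups without overlap, against 0.535% of all probes.

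Xbp1 encodes the transcription factor made active by IRE1. By A_55_P1994032 the log2 signal was 13.65 at the lowest, 14.01 at the median and 14.35 at the highest in reference. In HFoleic these values were 14.27, 14.68 and 15.07, and in HFepa 13.99, 14.04 and 14.47. Of 8 HFoleic mice, 7 lay above the highest reference mouse, while 6 of 7 HFepa mice lay within the reference range.

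**Figure D1:**
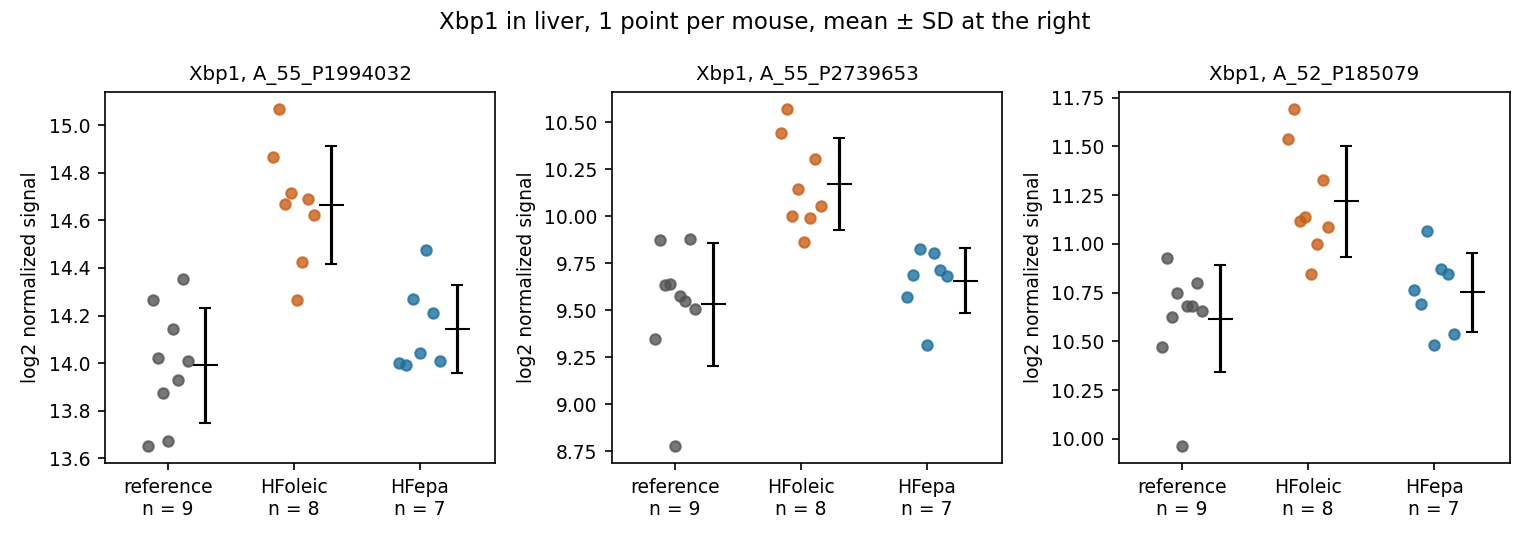
Log2 normalized signal of the 3 Xbp1 probes (vertical axes, which do not start at 0 and differ between panels) in reference, HFoleic and HFepa, with 1 point per mouse and the group mean ± SD at the right of the points. In each panel 7 of 8 HFoleic mice lie above every reference mouse.

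The group means of that probe were 13.99 ± 0.24 (SD, n = 9) in reference and 14.66 ± 0.25 (SD, n = 8) in HFoleic. The difference was 0.67 ± 0.11 (SE) on the log2 scale, or 1.60-fold (95% interval 1.37 to 1.86), with a limma adjusted p of 0.000864. A_55_P2739653 gave 0.64 ± 0.12 (adjusted p = 0.00334), and A_52_P185079 gave 0.60 ± 0.12 (adjusted p = 0.00434). The 3 probes read messages of 1 gene in the same RNA and are not 3 independent observations. The call held for each probe under all 14 other settings and all 24 fits with 1 array left out. Within slides, A_55_P1994032 was higher in HFoleic by 0.91, 0.51 and 0.53. Reference replicate 5 was the lowest reference mouse by the other pair of probes, at 8.78 and 9.96, and without it the 3 differences were 0.63 (A_55_P1994032), 0.55 (A_55_P2739653) and 0.52 (A_52_P185079), with adjusted p of at most 0.00501.

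Creb3l2 encodes a transcription factor anchored in the endoplasmic reticulum membrane, which site-1 and site-2 proteases release. By A_52_P343856 (chr6:37281208-37281267, minus strand, mm9) the reference mice lay between 6.46 and 7.21 with a median of 6.83. The HFoleic mice lay between 6.48 and 8.25 with a median of 7.43, and the HFepa mice between 6.78 and 7.24 with a median of 6.98. HFoleic was the most spread of the 3 groups (SD 0.51, against 0.27 in reference and 0.17 in HFepa), and it overlapped both. The difference from reference was 0.53 ± 0.16 (SE; limma adjusted p = 0.0488), and that of A_51_P500643 was 0.47 ± 0.15 (adjusted p = 0.0518). Both sat beside the threshold, and the call of A_52_P343856 was kept in 6 of 14 other settings and in 5 of 24 fits with 1 array left out. By the exact permutation test, adjusted over the 30033 probes with a value on all arrays, its p was 0.126.

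The proteases that release these factors differed little. For Mbtps2, the site-2 protease, A_55_P2792072 (chrX:153985834-153985893, minus strand, mm9) ran from 8.43 to 8.77 in reference (median 8.59), from 8.14 to 8.49 in HFoleic (median 8.41) and from 8.24 to 8.54 in HFepa (median 8.37). All 8 HFoleic mice and all 7 HFepa mice lay below the reference mean. The difference between HFoleic and reference was −0.23 ± 0.06 (SE; limma adjusted p = 0.0286). A_55_P2185910, the other Mbtps2 probe, gave −0.11 ± 0.09 (adjusted p = 0.566). The call of A_55_P2792072 was lost on leaving out reference replicate 2, 3 or 7 or HFoleic replicate 1, 2 or 8, where the adjusted p reached at most 0.0638. Within slides the difference was −0.45, −0.15 and −0.09. The 4 probes of Mbtps1, the site-1 protease, gave differences from −0.02 to 0.18 with adjusted p from 0.0806 to 0.945. For the largest, A_52_P589065, the adjusted p was 0.0217 without reference replicate 8. This was its 1 call in 24 fits with 1 array left out, against 0 in 14 other settings.

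**Figure D2:**
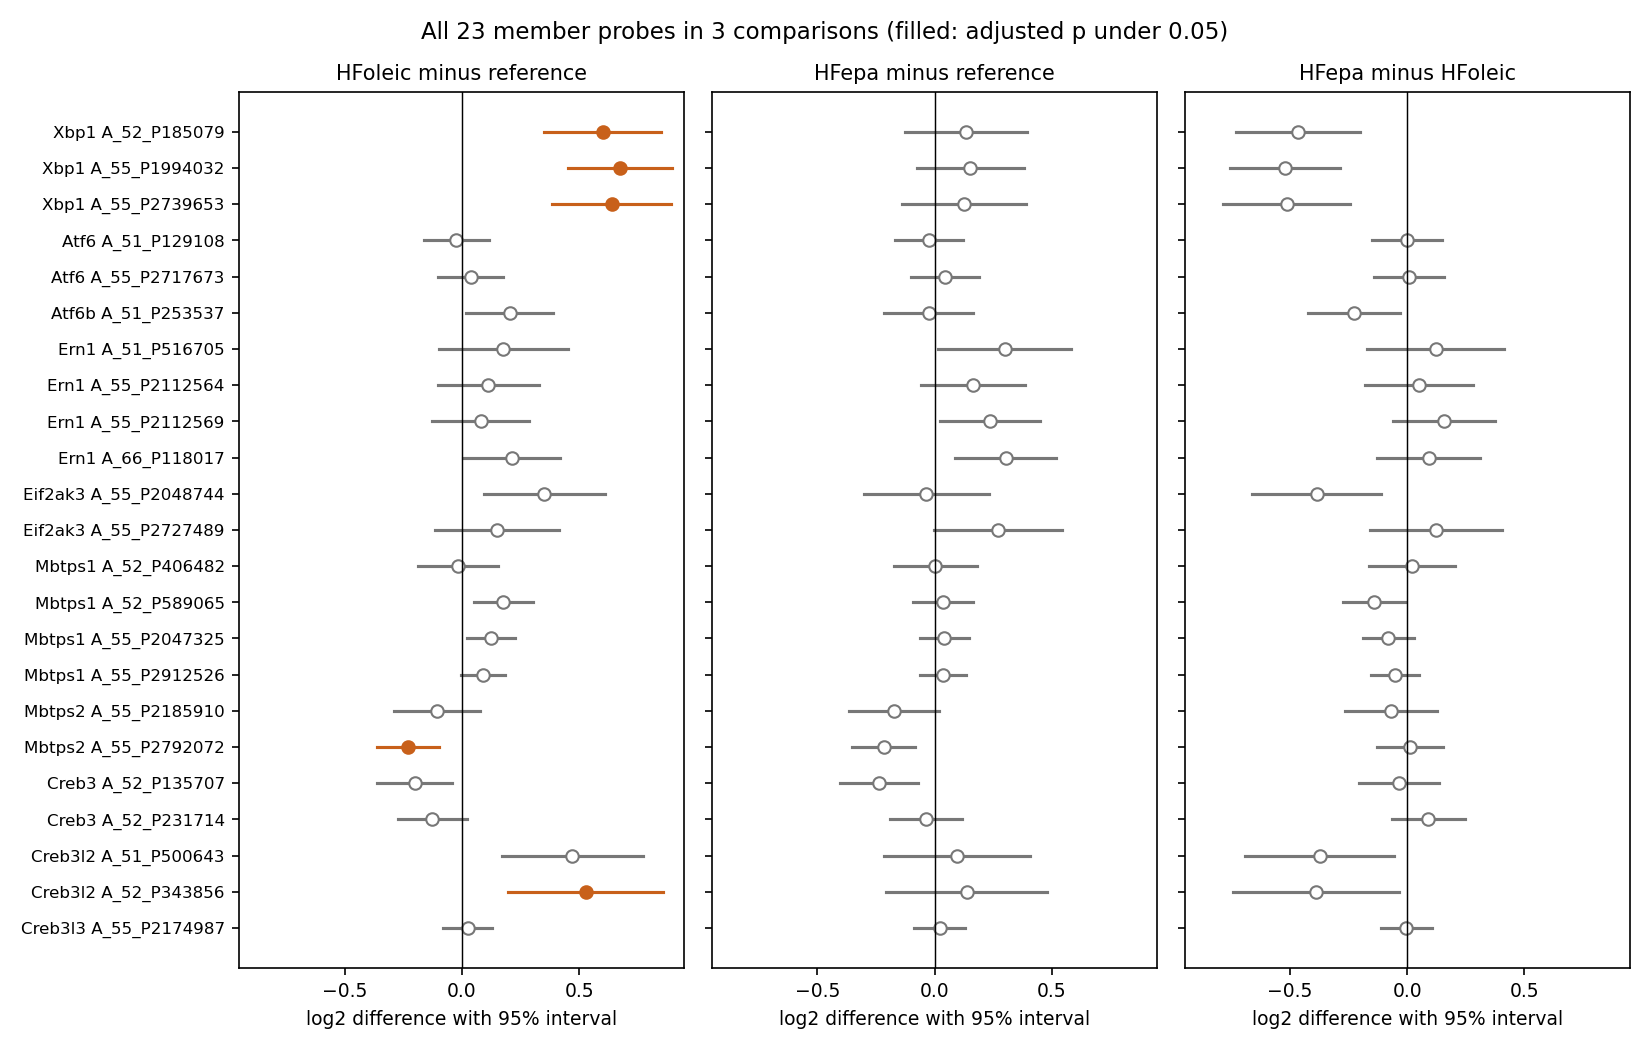
Log2 difference of each of the 23 member probes (points) with its 95% interval (lines) in the 3 comparisons, with filled orange marks for an adjusted p under 0.05. The 3 Xbp1 probes are the highest in HFoleic minus reference, and no mark is filled in the panels with HFepa.

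The sensors themselves were not called. Ern1 encodes IRE1, and its 4 probes gave 0.08 to 0.21 in HFoleic against reference, with adjusted p from 0.237 to 0.729. By A_66_P118017, the brightest Ern1 probe, the lowest, median and highest values were 10.18, 10.60 and 10.90 in reference, 10.47, 10.84 and 11.14 in HFoleic, and 10.64, 10.89 and 11.21 in HFepa, and the 3 groups overlapped. Eif2ak3 encodes PERK, and A_55_P2048744 ran from 8.20 to 8.73 in reference (median 8.41), 8.19 to 9.28 in HFoleic (median 8.77) and 8.03 to 8.80 in HFepa (median 8.30). Its difference between HFoleic and reference was 0.35 ± 0.13 (SE; limma adjusted p = 0.0960), which came to 0.44 with an adjusted p of 0.0235 without HFoleic replicate 5. That was the 1 call among 24 fits with 1 array left out, and 0 of 14 other settings called this probe. The other Eif2ak3 probe, A_55_P2727489, gave 0.15 ± 0.13 (adjusted p = 0.573).
Among the member probes in the table, the annotation named no RefSeq message for Eif2ak3 A_55_P2727489, Ern1 A_66_P118017, A_55_P2112569 and A_55_P2112564, Atf6 A_55_P2717673 and Creb3l2 A_51_P500643. Which transcripts these probes read was not tested.

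**Figure D3:**
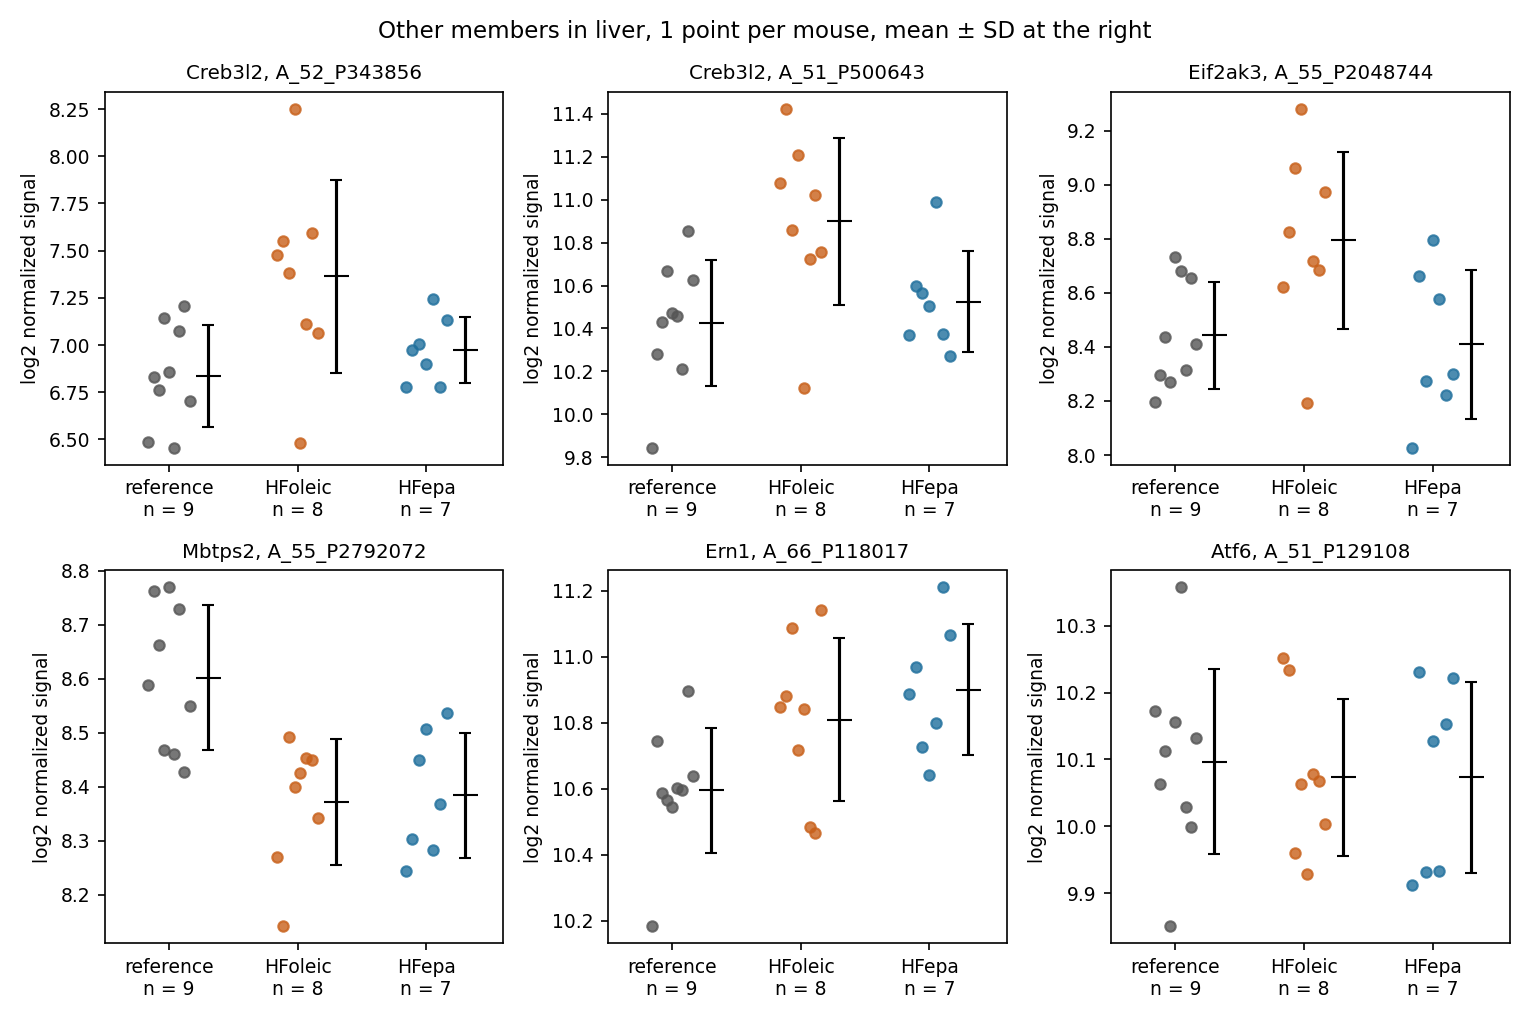
Log2 normalized signal of 6 further member probes (vertical axes, which do not start at 0 and differ between panels) in reference, HFoleic and HFepa, with 1 point per mouse and the group mean ± SD at the right. HFoleic spreads most for Creb3l2 A_52_P343856, and the 3 groups overlap for Atf6.

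Atf6 encodes the founding membrane-bound factor of its class. By A_51_P129108 (chr1:172637679-172637738, minus strand, mm9) it ran from 9.85 to 10.36 in reference (median 10.11), 9.93 to 10.25 in HFoleic (median 10.07) and 9.91 to 10.23 in HFepa (median 10.13). The difference between HFoleic and reference was −0.02 (95% interval −0.16 to 0.12), and that of A_55_P2717673 was 0.04 (−0.10 to 0.18). These intervals leave out a change of the size seen for Xbp1, though A_55_P2717673 had a low signal (reference mean 6.26). Atf6b, its close relative, gave 0.20 ± 0.09 (SE; limma adjusted p = 0.195) by its single probe.

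Creb3l3 encodes CREB-H, a liver-enriched factor of the same class that acts on lipid genes. Its single probe (chr10:80547080-80547139, minus strand, mm9) ran from 15.53 to 15.78 in reference (median 15.69), 15.59 to 15.78 in HFoleic (median 15.70) and 15.53 to 15.85 in HFepa (median 15.65). The groups overlapped almost fully, and the difference between HFoleic and reference was 0.02 (95% interval −0.08 to 0.13). Creb3, also known as Luman, was lower in HFoleic by −0.20 ± 0.08 (SE; adjusted p = 0.128) with A_52_P135707 and by −0.13 ± 0.07 (adjusted p = 0.340) with A_52_P231714. Reference replicate 8 was the lowest reference mouse by A_52_P135707, at 10.57. Without it the difference was −0.26 with an adjusted p of 0.00909. A_52_P135707 was called in no other of the 24 fits with 1 array left out and in 0 of 14 other settings.

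The second comparison set HFepa against reference. No member was called, and Xbp1 lay close to reference, with differences of 0.15 ± 0.11 (SE) by A_55_P1994032, 0.13 ± 0.13 by A_55_P2739653 and 0.13 ± 0.13 by A_52_P185079. Limma called 0 of 23 member probes, against 0.342% of the table, and so did the methods' t-test and the exact permutation test. Before adjustment 5 of 23 member probes, for 3 genes, and 4149 of all 32176 probes had a p under 0.05. They were 3 Ern1 probes, higher in HFepa by 0.30 (A_66_P118017, adjusted p = 0.190), 0.30 (A_51_P516705, 0.359) and 0.24 (A_55_P2112569, 0.330), Mbtps2 A_55_P2792072 at −0.22 (0.135) and Creb3 A_52_P135707 at −0.24 (0.182). All 7 HFepa mice lay on the same side of the reference mean for the first of the Ern1 probes and for the Mbtps2 and Creb3 probes. Without reference replicate 8, Creb3 A_52_P135707 had a difference of −0.30 and an adjusted p of 0.0221, its 1 call in 24 such fits. For Xbp1 A_55_P1994032 the difference within slides was 0.28, 0.22 and −0.06, so its sign differed between slides. Both comparisons used the same 9 reference mice, so their values are not independent.

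The third comparison, HFepa against HFoleic, set mice of the 2 lineages side by side under the same diet. Oil and ancestry went together, so they cannot be told apart, and the p-values do not measure a spread between lineages. Xbp1 was lower in HFepa by 0.47 to 0.52 on the log2 scale by all 3 probes, but no member passed the adjustment. The difference of A_55_P1994032 was −0.52 ± 0.11 (SE), or 0.70-fold (95% interval 0.59 to 0.82), with a limma adjusted p of 0.124. The adjusted p was 0.197 for A_55_P2739653 and 0.223 for A_52_P185079. By A_55_P2739653 the highest HFepa mouse (9.83) lay below the lowest HFoleic mouse (9.86), the only one of 23 member probes for which the groups did not overlap, against 0.143% of all probes. Of all 32176 probes limma called 0 (0%), and neither the methods' t-test nor the exact permutation test called any. The smallest adjusted p was 0.0558, while 2969 probes had an unadjusted p under 0.05. This comparison shares the 8 HFoleic mice, with opposite sign, with HFoleic against reference, so the direction of a member in it is no independent result. Of the member probes 8 of 23, for 5 genes, had an unadjusted p under 0.05, all lower in HFepa.
The other 5 were Creb3l2 A_52_P343856 at −0.39 ± 0.17 (SE) and A_51_P500643 at −0.37 ± 0.16, Eif2ak3 A_55_P2048744 at −0.39 ± 0.13, Atf6b at −0.23 ± 0.10 and Mbtps1 A_52_P589065 at −0.14 ± 0.06, with adjusted p from 0.344 to 0.507. Eif2ak3 A_55_P2727489 went the other way, at 0.12 ± 0.14. The remaining Mbtps1 probes gave −0.08 (A_55_P2047325), −0.05 (A_55_P2912526) and 0.02 (A_52_P406482). The Xbp1 difference by A_55_P1994032 was −0.63, −0.29 and −0.58 within the 3 slides. Its adjusted p stayed above the threshold in every setting, from 0.0892 to 0.430, and from 0.0594 to 0.329 with 1 array left out. For Atf6 the difference was within 0.01 of 0, and the 95% interval was −0.15 to 0.15 by A_51_P129108.

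Genes around the members were read from 8 lists, each gene by its brightest probe with values on all arrays. Of 69 genes measured, 23 were called higher and 7 lower in HFoleic against reference, and 0 in either comparison of HFepa. Over all 20556 gene names read in that way, 4.15% were called higher and 683 were called lower in HFoleic against reference, and the counts of each list stand against that background. The lists were chosen with earlier results of these data known, so their counts are no independent support. By probes other than the brightest, 1 of 4 Hyou1 probes was called in HFepa against reference. Genes known as targets of ATF6 were called higher in 11 of 11 measured, with a median log2 difference of 0.81 against 0.00 for all probes. Among them Sdf2l1, a partner of the chaperone BiP, rose by 1.68 ± 0.32 (SE; adjusted p = 0.00277), Manf, a secreted protein retained in the endoplasmic reticulum, by 1.26 ± 0.25 (0.00447), and Creld2, of that same compartment, by 1.24 ± 0.25 (0.00426). Hspa5, which encodes BiP, the chaperone that holds the sensors inactive, rose by 0.99 ± 0.18 (0.00253). By all probes of these 11 genes, 3 of 4 for Hyou1 and 1 of 3 for Sel1l were called, and every probe of the others. For HFepa against HFoleic the median was −0.56, all 11 were below 0 and the smallest adjusted p was 0.130. That comparison shares the 8 HFoleic mice, with opposite sign, with the one in which these genes were called higher, so the direction in it is no independent result for any list. Against reference the 11 had a median of 0.22 in HFepa, with a smallest adjusted p of 0.0916.

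**Figure D4:**
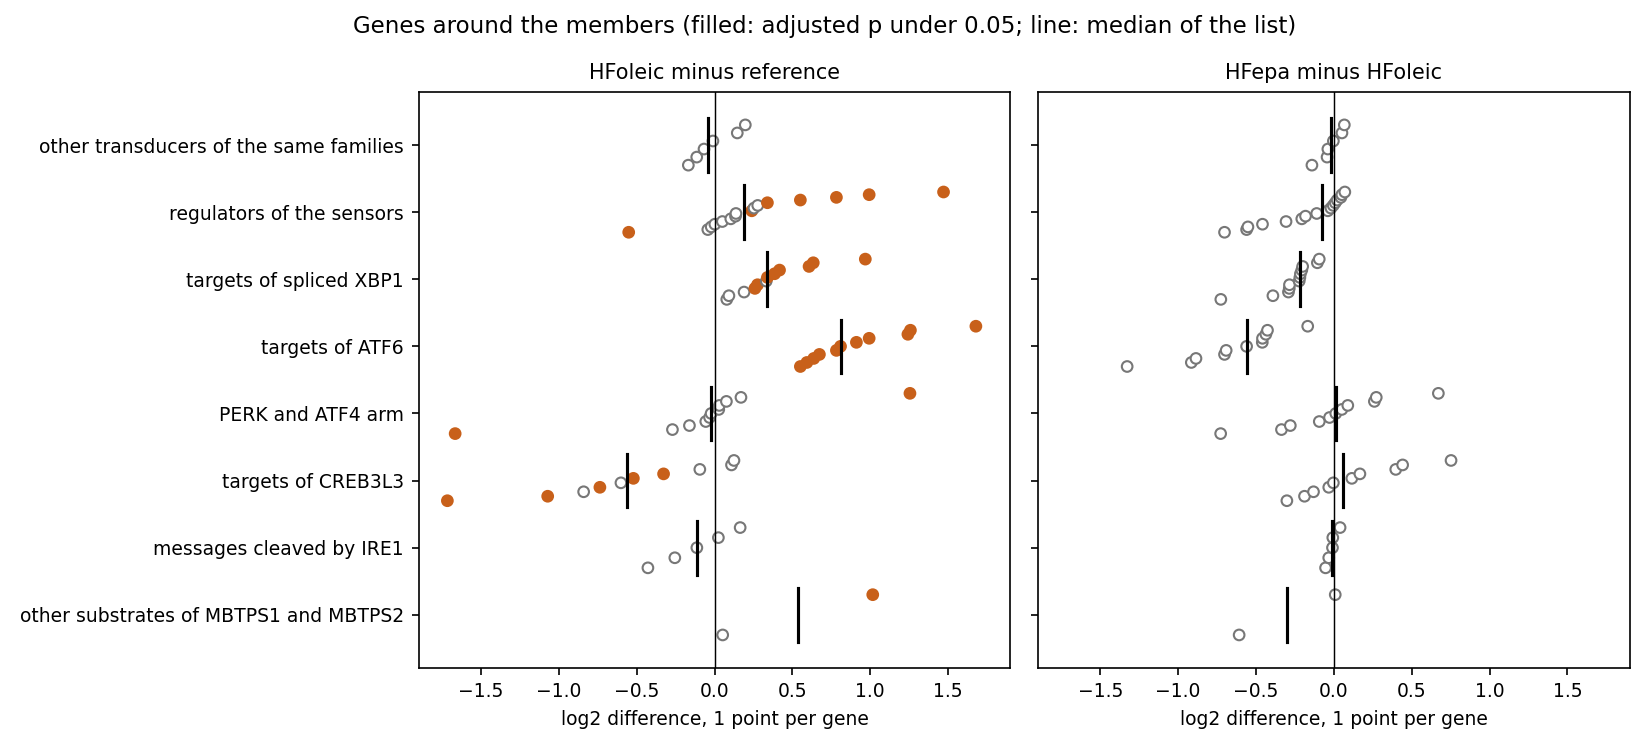
Log2 difference of each list gene (1 point per gene, horizontal axis) in HFoleic minus reference and in HFepa minus HFoleic, by list, with filled orange points for an adjusted p under 0.05 and a black line at the median of the list. All 11 measured targets of ATF6 are filled on the right of 0 in the first panel, and no point is filled in the second.

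Genes known as targets of spliced XBP1 were called higher in 8 of 12, with a median of 0.34. The largest were the disulfide isomerase Pdia6 at 0.97 ± 0.13 (SE; adjusted p = 0.000274), the co-chaperones Dnajb9 at 0.63 ± 0.18 (0.0286) and Dnajb11 at 0.61 ± 0.12 (0.00372), and Sec61b, a subunit of the translocation channel, at 0.42 ± 0.08 (0.00253). Edem1, Serp1, Srp19 and Derl1 were not called. Among the called genes, Dnajb11 was called by 2 of 3 probes and Sec61a1 by 1 of 3. Sec24d, also in this list, had a probe with 1 empty cell, and limma gave 0.16 (adjusted p = 0.311) in HFoleic against reference. In HFepa against HFoleic, with the same mice shared, the median of the 12 was −0.22 and none was called. Whether a gene of either target list answered to ATF6, to XBP1 or to both was not tested. The medians of these lists are therefore no comparison of the 2 factors.

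In the PERK and ATF4 arm 1 of 11 genes was called higher and 1 lower, with differences from −1.67 to 1.25 and a median of −0.02. The glutathione-degrading enzyme Chac1 rose by 1.25 ± 0.26 (SE; adjusted p = 0.00576), and Asns, asparagine synthetase, fell by 1.67 (SE 0.38; 0.00962). Of the 2 Asns probes, 1 was called. Ppp1r15a, which reverses the translation block, gave −0.27 ± 0.11 (0.143), and Atf4 gave 0.17 ± 0.08 (0.232). Of 10 genes known as targets of CREB3L3, 5 were called lower and none higher, with a median of −0.56. Cidec, a lipid droplet protein, fell by 1.72 (SE 0.47; 0.0261), the hormone Fgf21 by 1.07 (SE 0.30; 0.0318), and the gluconeogenic enzymes Pck1 by 0.74 (SE 0.11; 0.000688) and G6pc by 0.52 (SE 0.12; 0.00944). Several of these genes also answer to other fasting factors.

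Of 16 genes listed as regulators of the sensors, 6 were called higher and 1 lower. The list took in Insig1, Insig2 and Scap, which act on the SREBPs. Insig1, which holds SCAP and the SREBPs in the endoplasmic reticulum, rose by 1.47 ± 0.21 (SE; adjusted p = 0.000445), and Syvn1, a ubiquitin ligase of misfolded proteins, by 0.78 ± 0.14 (0.00253), while Insig2 fell by 0.55 (SE 0.12; 0.00695). Hspa5, Syvn1, Sel1l and Dnajc3 stand in 2 lists each. Tmbim6 was called by 1 of 2 probes and Insig2 by 2 of 3. Of the 2 other substrates of Mbtps1 and Mbtps2, Srebf1, a regulator of lipid synthesis, rose by 1.02 ± 0.22 (0.00603), and Srebf2, the regulator of cholesterol synthesis, gave 0.05 ± 0.09 (0.827). None of 6 other transducers of the same families and none of 5 messages known to be cleaved by IRE1 was called. Eif2ak4 (0.15 ± 0.05; 0.0893) came nearest among the former and Bloc1s1 (0.16 ± 0.05; 0.0575) among the latter, though another probe of Pmp22, also cleaved by IRE1, was called.

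The endoplasmic reticulum stress element (ERSE), to which ATF6 binds together with NF-Y, reads CCAAT, 9 bases, CCACG. It was searched on both strands in RefSeq promoter windows of GRCm38.p6, from 250 bases before to 50 after each gene start. Of 32851 windows 0.119% held it. No window of the 9 members with an entry held it, nor TGACGTGG (the UPRE core, in 0.676% of windows) or TGACGTCA (the cyclic AMP response element, in 1.79%), and Atf6 is not in the table. CCACG alone was in 32.8% of windows and in those of 4 members. Of 58 list genes with an entry, 8 held an ERSE, 44 to 212 bases before the start. The sites are shown because these genes carry the pattern of the target lists, with CCAAT and CCACG in capitals, on the strand that reads CCAAT first.
Hspa5, chr2:34772025-34772043: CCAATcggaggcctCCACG
Calr, chr8:84847075-84847093: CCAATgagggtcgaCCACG
Derl3, chr10:75893242-75893260: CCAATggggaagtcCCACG
Hsp90b1, chr10:86705638-86705656: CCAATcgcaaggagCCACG
Hsp90b1, chr10:86705533-86705551: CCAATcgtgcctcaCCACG
Pdia6, chr12:17266491-17266509: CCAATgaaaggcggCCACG
Dnajc3, chr14:118937827-118937845: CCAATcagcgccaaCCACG
Creld2, chr15:88819520-88819538: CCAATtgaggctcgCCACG
Syvn1, chr19:6046532-6046550: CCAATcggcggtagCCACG
The site read on the strand of the gene in Hspa5, Pdia6, Dnajc3, Syvn1 and the first of the Hsp90b1 sites, and on the opposite strand in the others.

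Of these 8 genes, 7 had values on all arrays and all 7 were called higher in HFoleic. Derl3, an endoplasmic reticulum degradation factor, had a probe with 2 empty cells that limma fitted on the remaining arrays, and it rose by 2.82 (adjusted p = 0.000912). Some of these genes were placed in the lists because they are known to carry such a site, so their share is no independent observation. Over all genes with an ERSE in the window and values on all arrays, 9 of 19 were called higher, or 47.4%, against 4.15% of 20556 gene names. Of the 12 outside the lists, 2 were called higher, the chaperone Canx (0.31) and Hnrnpa3 (0.23), and 1 lower, Acacb (−0.78). These names were chosen after their values were seen. A match of letters is a description and not evidence of binding.

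Members also varied between mice of the same group, measured as the deviation of each array from its group mean on the brightest probe. Across the 24 arrays, which share slides, Xbp1 and Creb3l2 deviated together (Pearson's r = 0.74, Spearman's rho = 0.62). Over all arrays this was the highest r of Xbp1 with any of the 9 other members. It came to 0.61 without the 2 mice farthest from the median of Xbp1 and to 0.75 with slide means removed as well, and it was 0.52 within reference, 0.92 within HFoleic and 0.75 within HFepa. For Xbp1 and Atf6b r was 0.55 over all arrays (0.46, 0.60 and 0.65 within reference, HFoleic and HFepa), and for Xbp1 and Mbtps2 it was −0.43 (−0.31, −0.74 and −0.21). The sign differed between groups for Xbp1 and Ern1, at 0.34 over all arrays and 0.85, 0.18 and −0.18 within the groups. The same held for Xbp1 and Atf6, at 0.09 over all arrays and −0.06, 0.79 and −0.55 within the groups. Within reference Ern1 thus had a higher r with Xbp1 than Creb3l2 had. These are descriptions over few mice, and no test was made.

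**Figure D5:**
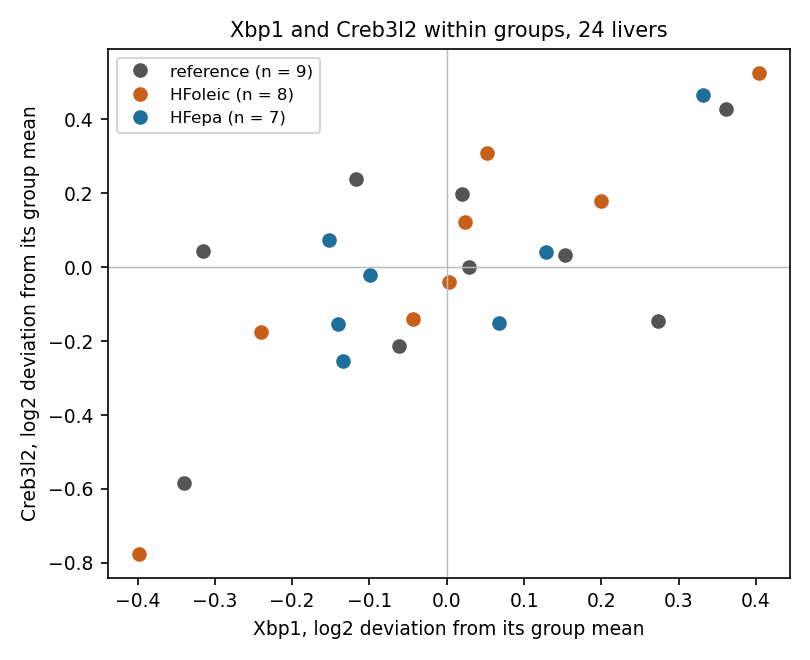
Deviation of Creb3l2 (A_51_P500643, vertical axis) against that of Xbp1 (A_55_P1994032, horizontal axis) from the mean of their own group, in log2 units, with 1 point per mouse coloured by group. The 2 deviations correlated positively in each of the 3 groups (r = 0.52, 0.92 and 0.75 in reference, HFoleic and HFepa), though not every mouse followed this.

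The 5 gene names most like Xbp1 in these deviations were Gfpt1 (r = 0.86), the entry enzyme of the hexosamine pathway, Gmppb (0.82), which makes GDP-mannose for glycosylation, the chaperone Hyou1 (0.82), Manf (0.81) and Proz (0.79), a secreted plasma protein. All 5 were called higher in HFoleic against reference, by 0.41, 0.72, 0.64, 1.26 and 0.23. Those most like Atf6 were Bap1 (0.75), Ints5 (0.75), Pycard (0.74), Actr3 (0.71) and Gm8675 (0.70), and none of these was called in that comparison. Ern1 was followed by Svil (0.78), Lrig1 (0.72), Cdc37l1 (0.72), Slc22a30 (0.71) and Hipk2 (0.70), of which the first 4 were called higher. The nearest named genes to Eif2ak3 were Tmem14c (0.74) and Pea15a (0.73). For Creb3l3 they were Rad23b (0.86), Acot8 (0.79), 1700039E15Rik (0.79), Nol9 (0.78) and the lipid droplet gene Plin2 (0.78), none of them called. None of the 5 lists shares a name with another.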

How the data were processed

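Liver RNA of 24 mice was hybridised in 1 colour (Cy3) to Agilent mouse arrays, 1 mouse per array, on 3 slides of 8. The labels gave each sample's group and number. The authors deposited a log2 table for 32176 probes, made from filtered median signals by quantile normalization, in which 2550 cells are empty. The filter is not given in the sources used here. They also deposited the scanner output (Agilent Feature Extraction 10.10.1.1), whose median, mean and processed signals are intensities per the file headers, and whose deposited spot marks (outlier, well above background) are scores of 0 or 1. Each column of that set correlated with its own array's log2 scanner signal at r of at least 0.9997. The number of arrays limits the precision.

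Deposited log2 values were fitted with limma 3.58.1 (R 4.3.3): a group-means model over all 24 arrays with 21 residual degrees of freedom, and moderated two-sided contrasts. P-values were adjusted by Benjamini-Hochberg within a comparison, over all probes. A probe was called where that p was under 0.05. Empty cells were left out of a probe's fit. The functions follow the study's methods, whose t-test was run as an alternative. Exact permutation tests used all 24310, 11440 and 6435 splits of the compared mice. Intervals are at 95%, before adjustment. The fit was tested on simulated data. Other tools were data.table (version 1.17.8), Python 3.11.15, pandas 2.3.3, numpy 2.4.6, scipy 1.17.1 and matplotlib 3.10.9.

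All member probes were named. Of each list and comparison up to 4 genes were named, the called ones of largest difference first, and a list gene was read by its probe of highest mean signal among probes with values on all 24 arrays. For 5 members the 5 gene names of highest correlation were taken. Derl3, Sec24d and the genes outside the lists that hold an ERSE lie outside that rule. So do further called or uncalled list genes named by a site, by their other probes or to complete a count. The members and lists were chosen with earlier results of these data known. Probe coordinates (mm9, 1-based) and names are those of the scanner output, and exon or UTR positions were not looked up because no annotation of that build was used. Promoter sequences are from RefSeq (GRCm38.p6), which matched 9 of 10 members. Mean signal served to choose among probes of 1 gene and to point out probes of low signal. Levels were otherwise not compared between probes.

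Alternatives were the scanner signals with and without a filter on dim probes (well above background on 75% of the arrays of 1 group), the 75th percentile in place of quantile normalization, normexp with an offset of 50, slide, slide row or replicate number as a block, other tests and variance models, and leaving out each array.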

Additional observations from a re-analysis of the deposited data

Results flagged for a closer look

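Of 69 sets of values (23 member probes in 3 groups), 8 held 1 mouse far from the rest of its group, with a gap to the nearest mouse beyond the 95% critical value of Dixon's test for that group size. Chance flags about 1 in 20 sets, and probes of 1 gene are not independent. Reference replicate 5 was the lowest for Xbp1 by A_55_P2739653 (8.78, nearest 9.35) and by A_52_P185079 (9.96, nearest 10.47). Reference replicate 1 was the lowest for Ern1 A_66_P118017 (10.18, nearest 10.54), and reference replicate 6 the highest for Ern1 A_55_P2112564 (6.35, nearest 5.87), a probe near background. Reference replicate 8 was the lowest for Creb3 A_52_P135707 (10.57, nearest 10.97). HFepa replicate 5 was the lowest for Mbtps1 A_55_P2912526 (11.49, nearest 11.64), Mbtps1 A_52_P589065 (7.38, nearest 7.55) and Atf6 A_55_P2717673 (6.09, nearest 6.29). On the arrays, no difference between the responses of the 2 obesogenic groups passed the limma test of that difference on the deposited values. By RT-qPCR, a separate measure of the message, the paper reported Xbp1 as higher in HFoleic than in reference. It also reported Xbp1 as lower in HFepa than in HFoleic, and both passed its threshold.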

How the results depend on the processing

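Of 69 differences (23 member probes in 3 comparisons), 7 changed their side of the threshold in some setting, and no called difference changed sign. The 3 Xbp1 calls held in all 14 other settings and all 24 fits with 1 array left out. In HFoleic against reference 3 member probes in place of 5 were called without a filter on dim probes (scanner median signal), and the number ran from 3 to 8 with 1 array left out. Replicate numbers did not pair the mice, since deviations of same-numbered mice correlated from −0.28 to 0.34. With the replicate number as a block, 3 member probes and 1668 of all probes were called in that comparison, the Xbp1 probes among them. The whole table gave 1451 to 2321 calls there across settings, against 2122, and the exact test, added after seeing the data, gave 1689. In HFepa against reference the table gave 110 calls but 0 without a filter, 0 by the methods' t-test, 0 with only the 2 groups fitted, 0 by the exact test, and 0 to 467 with 1 array left out (467 without reference replicate 8). Member probes called there ran from 0 to 1 with 1 array left out. List genes called there came to 3 with probes well above background on all arrays, 1 with the 75th percentile of the median signal, 1 with normexp, 1 with the replicate block, and 0 to 5 with 1 array left out. In HFepa against HFoleic the table gave 2 calls with probes well above background on all arrays, 2 with intensity trend and robust priors, and 0 to 12 with 1 array left out, and list genes gave 0 to 1. The causes were not tested. Signal over background limits Ern1 A_55_P2112564 and the member probes outside the table. Low signal also limits Atf6 A_55_P2717673 and Mbtps2 A_55_P2185910, with reference means of 6.26 and 6.43 against an array median of 7.82 or more. In HFoleic against reference they ran from 0.01 to 0.09 and from −0.23 to −0.07 across the 14 other settings. Eif2ak3 A_55_P2727489 (6.44), Ern1 A_55_P2112569 (6.48) and Mbtps1 A_52_P406482 (6.54) lay nearly as low.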

Other observations

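The 5 member probes outside the deposited table were dim. Ern1 A_55_P2112560 was well above background on 2 of 9 reference, 3 of 8 HFoleic and 4 of 7 HFepa arrays, and Mbtps2 A_55_P2925549 on 3, 2 and 2. Mbtps2 A_52_P491718 and Creb3l2 A_55_P2717235 were well above background on 1 reference array each and on no other. Mbtps2 A_55_P2014347 was so on 1 reference and 1 HFoleic array. Their annotation named no RefSeq message.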
